A study of Homo sapiens with 16 samples.

Results

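The S100 genes measured here are S100P, S100A2, S100A4, S100A6, S100A7, S100A8, S100A9, S100A10, S100A11 and S100A14, which encode small proteins of the S100 family of calcium-binding proteins. Each was followed by the array probe that carries its symbol, and each of the 10 genes has 1 probe, so 10 of the 20589 probes and 10 of the 18190 gene symbols on the array are described. The cells were MCF10HER2, that is MCF10A, a line of nontransformed human breast epithelium, transduced so that it stably over expresses the receptor HER2, a tyrosine kinase. Parallel cultures were grown in serum-free medium without insulin, with epidermal growth factor and hydrocortisone. They were given a small molecule that inhibits the kinase HER2, at a dose of 1 µM. Samples were collected every 3 h from 0 to 45 h, which gives 16 arrays with 1 array per time point and no replicates. Only the 0 h culture was untreated, the methods of the study state that the medium was changed when the inhibitor was added, and later untreated cultures were not analysed here, so the time in fresh medium and the time with the inhibitor cannot be told apart. All arrays share 1 cell line, the HER2 transgene and the insulin-free medium with epidermal growth factor.

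S100 proteins are small EF-hand proteins, most of which work as dimers that open a binding surface for partner proteins when they take up calcium. S100A8 and S100A9 pair to form calprotectin, which is abundant in neutrophils and monocytes and is also made by stressed or inflamed epithelium, where S100A7 (psoriasin) is made as well. S100P, S100A4 and S100A6 are known for high levels in many carcinomas, S100A10 for its complex with annexin A2 at the cell membrane, and S100A2 as an epithelial gene with low levels in many breast tumours. Outside the cell several members signal through the receptor RAGE (gene symbol AGER) or the receptor TLR4.

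Of the 10 genes, 9 were detected on all 16 arrays and entered the tests. The S100A7 probe was not detected on any of the 16 arrays, with intensities between 149 and 223, and it was not tested. The other members spanned most of the range of the array. S100A6 and S100A10 were among the brightest probes, with median intensities of 61231 and 61467, while the brightest probe of an array reached between 66159 and 70425. Median intensities were 28532 for S100A2, 20424 for S100A14, 16414 for S100A11, 7411 for S100A4, 3754 for S100P, 1209 for S100A8 and 419 for S100A9. These are intensities of different probes and give no order of transcript levels between genes.

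Proximal promoters of 7 members are shown because the members differ in 1 feature that was noticed after the expression values had been seen. All 10 members matched the RefSeq promoter table (GRCh38.p14), with 13 start sites between them. S100P lies on chromosome 4 and the other 9 genes on chromosome 1. S100A10 and S100A11, tested members without this feature, and S100A7, which was not detected, are left out to keep the set short. For each gene below, the 30 bases from 40 to 11 bases before a gene start are given 5′ to 3′ on the strand of the gene, with the letters TATAAN, the core of a TATA box with its last letter free, in capitals. For S100A8 the start site with such a match among its 3 listed starts is shown, and for S100A2 the first listed of its starts.
S100P (chr4:6693838-6693867, plus strand): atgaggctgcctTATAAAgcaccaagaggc
S100A8 (chr1:153391084-153391113, minus strand): agcctaaccgcTATAAAaaggagctgcctc
S100A9 (chr1:153357814-153357843, plus strand): caggagctgccTATAAAtgccgagcctgca
S100A4 (chr1:153545817-153545846, minus strand): tggctggggTATAAAtaggtcagacctctg
S100A6 (chr1:153536002-153536031, minus strand): caccgaccgcTATAAGgccagtcggactgc
S100A14 (chr1:153616336-153616365, minus strand): cttcccccaggTATAAGagctgagctcagg
S100A2 (chr1:153565855-153565884, minus strand): atgtcatgagaatgaggcctggcaccagtc
The letters TATAAA began 28 bases before the start of S100P, 29 before those of S100A8 and S100A9, and 31 before that of S100A4. S100A7, which was not detected, also holds them, 28 bases before its start. On the strand of the gene, 2.17% of 35116 promoters hold TATAAA beginning between 25 and 35 bases before the start, and 3.57% hold TATAAN there. A match is a description of these letters and does not show a site in use.

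The arrays differed in ways that bear on the time courses. Background was 135.9 to 148.9 in the first 8 arrays (up to 21 h) but 164.5 to 173.9 in the last 8 (24 h onward), so a change between 21 and 24 h cannot be told apart from this shift. Steps on either side of it compare arrays of 1 set, with a spread estimated from all 16 arrays. The 9 h and 18 h arrays were dimmer before normalization, with upper quartiles of 397 and 418 against 553 to 804 elsewhere. Of 8 breast epithelial markers, all were detected on at least 1 array and 5 on all 16, among them KRT5, KRT17 and EPCAM, while KRT14 was detected on 1 array. CDH1 (log2 7.97 to 8.12) and TP63 (7.88 to 8.17), detected on 15 and 14 arrays, lay close to the level of undetected probes. Of 6 fibroblast markers, only DCN was detected on all arrays, and COL1A1, COL1A2, PDGFRB and LUM on none. The summed level of the list lay between 1374 and 1447. Such a sum also holds the level that undetected probes keep. For comparison, 4 undetected probes of genes for large S100-fused epidermal proteins summed to between 871 and 896. The HER2 gene, ERBB2, which the label names as over expressed, has 2 probes, detected on 1 and 7 of the 16 arrays, so they do not bear out the transgene; whether they match its transcript was not tested.

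**Figure D1:**
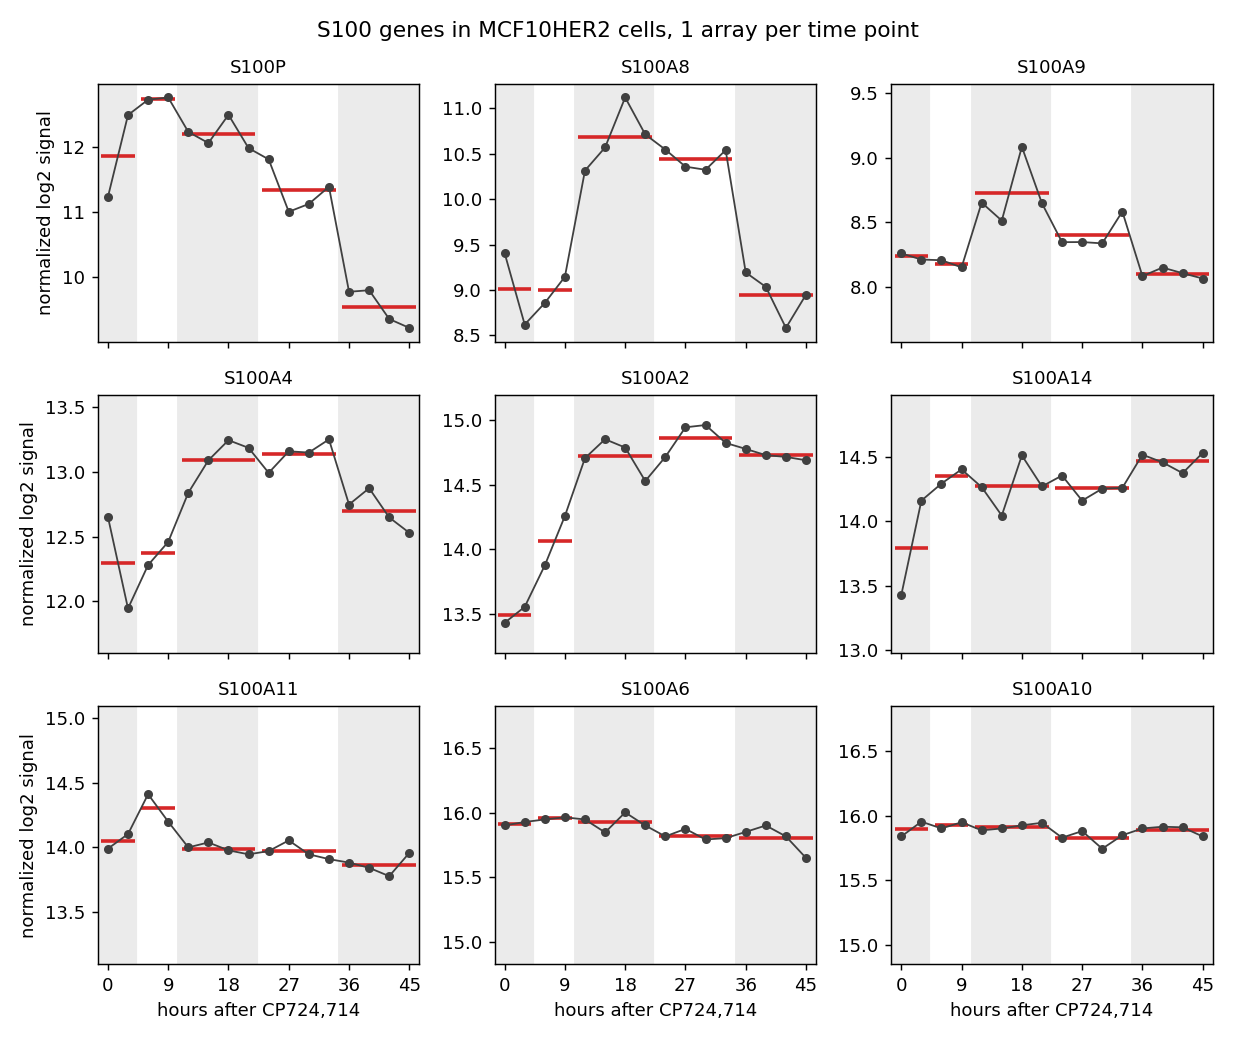
Normalized log2 intensity of the 9 detected S100 genes against hours of HER2 inhibitor (3 h between arrays), 1 array per point, with red lines for the mean of each phase, shading to mark the phases, and a y axis of its own per gene. S100P climbed from 11.23 at 0 h to 12.76 at 9 h and ended at 9.22, while S100A8 peaked at 11.12 at 18 h and S100A6 and S100A10 stayed between 15.65 and 16.00.

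S100P had the widest range of the 9 genes, and its direction differed by phase. Its normalized log2 intensity began at 11.23 (0 h), was 12.49 after 3 h and 12.73 after 6 h, and reached 12.76 after 9 h, which is 2.89-fold above 0 h. It then lay between 11.98 and 12.50 from 12 to 21 h and between 11.01 and 11.81 from 24 to 33 h. From 36 to 45 h it lay between 9.22 and 9.80, below every earlier array, and at 45 h it was 4.04-fold below 0 h. The early high and the late low thus stood on opposite sides of the untreated array.

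Each of the 4 steps between successive phases (0 to 3, 6 to 9, 12 to 21, 24 to 33 and 36 to 45 h) was tested across all 12321 probes with limma. S100P rose by 0.88 on the log2 scale (SE 0.31, adjusted p = 0.0416) from the first phase to the second, which holds 2 arrays each. This rise rests on the untreated array, since it was 0.25 (adjusted p = 0.556) without 0 h, and its adjusted p was 0.0903 without 6 h, 0.153 without 9 h, 0.05015 without 15 h and 0.0515 without 33 h. The rise also missed the threshold with array weights (adjusted p = 0.25), median scaling (0.0748), no detection filter (0.0672) and without both dim arrays (0.157). The next steps of S100P were -0.55 (SE 0.27, adjusted p = 0.120) into 12 to 21 h and -0.86 (SE 0.22, adjusted p = 0.0926) into 24 to 33 h, the step where the array sets change. Without the 0 h or the 3 h array both of these falls passed the threshold, with adjusted p = 0.0272 and 0.0278 for the first and 0.00696 and 0.00762 for the second. The second also passed with median scaling (-0.90, adjusted p = 0.0354) and with array weights (-0.86, adjusted p = 0.00358). The step into 36 to 45 h was the clearest, where S100P fell by 1.80 (SE 0.22, adjusted p = 2.29e-05) or 3.47-fold, and the arrays of the 2 phases did not overlap. The largest single difference lay between 33 and 36 h, where S100P went from 11.39 to 9.78, a difference of -1.61 against a root mean square difference of 0.206 over all tested probes between those arrays.

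S100A8, a subunit of calprotectin, moved in a hump. Its log2 intensity began at 9.41 (0 h), was 8.62 after 3 h, 8.86 after 6 h and 9.14 after 9 h, so that the 3 h array was 1.73-fold below the untreated one. It was 10.31 at 12 h, reached 11.12 at 18 h, 3.28-fold above 0 h, and stayed between 10.32 and 10.55 from 24 to 33 h. At 36 h it was 9.19, and the lowest value of the course was 8.58 at 42 h. The 8 arrays from 12 to 33 h were all higher than the 8 arrays before and after them.

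Both flanks of the S100A8 hump passed the test. The mean of 12 to 21 h was 10.68 ± 0.34 (SD, 4 arrays of different times) against 9.00 ± 0.20 (SD, 2 arrays) for 6 to 9 h, a rise of 1.68 (SE 0.21, adjusted p = 1.29e-05, limma) or 3.20-fold. The mean of 36 to 45 h was 8.94 ± 0.26 (SD, 4 arrays), so that it fell by 1.504 (SE 0.17, adjusted p = 1.3e-05, limma) or 2.84-fold from the preceding phase. Since the rise and the fall nearly cancel, the straight-line trend of S100A8 over 45 h was -0.16 (SE 0.63, 95% interval -1.49 to 1.17), which misses the threshold and does not describe the course. With array weights in the fit this trend was -2.18 (adjusted p = 0.00205).

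S100A9, the partner of S100A8 in calprotectin, followed with a smaller hump. Its log2 intensity lay between 8.15 and 8.26 from 0 to 9 h, between 8.51 and 9.08 from 12 to 21 h, between 8.34 and 8.58 from 24 to 33 h and between 8.06 and 8.15 from 36 to 45 h. All values of the last phase were below all values of the 2 phases before it. S100A9 rose by 0.55 (SE 0.11, adjusted p = 0.000601, limma) into 12 to 21 h and fell by 0.30 (SE 0.09, adjusted p = 0.0184) into 36 to 45 h. The fall did not pass without the 33 h array (-0.24, adjusted p = 0.0683) or the 45 h array (-0.29, adjusted p = 0.0532). S100A9 was 1.7-fold above 0 h only at 18 h, on a dim array, and without that array its farthest value from 0 h was 0.39 on the log2 scale. The S100A9 signal lies near the background, where the size of its changes depends on the background correction. With another correction (normexp on the signals, offset 50) the rise was 1.06 (adjusted p = 8.85e-05, limma) and the fall 0.82 (adjusted p = 0.000328). The farthest value from 0 h was then 1.27, and it was 0.76 with neqc at offset 50.

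Markers of myeloid cells, in which S100A8 and S100A9 are abundant, were read beside this hump. Of 8 markers, CSF3R, MPO and ELANE were detected on no array, ITGAM on 1, LYZ on 4 and PTPRC on 7, and only CD14 and CD68 on all 16. The levels of PTPRC, the marker common to all white blood cells, lay between 7.90 and 7.98, the level of undetected probes. CD68, a lysosomal protein that is not specific to myeloid cells, shared the rise of S100A8 but not its whole course. It rose by 1.68 (SE 0.13, adjusted p = 1.18e-07, limma) into 12 to 21 h. It fell by 0.64 (SE 0.11, adjusted p = 0.012) into 24 to 33 h and by 0.38 (SE 0.11, adjusted p = 0.0220) into 36 to 45 h. At 45 h CD68 was 10.00, above its 0 h level of 8.88, while S100A8 ended below its own. CD14 rose by 0.27 (SE 0.06, adjusted p = 0.00167) into 12 to 21 h. The summed level of the 8 markers, which also holds the level that undetected probes keep, lay between 2063 and 3829. Their part in the calprotectin values was not tested. S100A12, a further member of the calgranulin group, was detected on no array.

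S100A4, a protein that binds non-muscle myosin and is known from metastatic cells, had a lower and broader hump. Its log2 intensity was 12.65 at 0 h and 11.94 at 3 h, lay between 12.84 and 13.25 from 12 to 33 h, and was 12.53 at 45 h, close to its starting level. S100A4 rose by 0.72 (SE 0.15, adjusted p = 0.00126, limma) into 12 to 21 h and fell by 0.44 (SE 0.12, adjusted p = 0.0184) into 36 to 45 h. The fall missed the threshold without the 33 h (adjusted p = 0.0541), 42 h (0.0524) or 45 h array (0.0683), and with median scaling of the arrays (0.161). At no time point was S100A4 1.7-fold away from the untreated array, its farthest difference being -0.71 on the log2 scale, but with median scaling its farthest difference was 1.42 in size, and with the median of the 16 arrays as the baseline it was 0.91, both past 1.7-fold.

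S100A2 rose and stayed high. Its log2 intensity began at 13.43 (0 h), then took the values 13.55, 13.88, 14.26 and 14.71 from 3 h to 12 h, and from there to 45 h every array lay between 14.53 and 14.96. It was 2.89-fold above 0 h at its highest, at 30 h, and at least 1.7-fold above it at 13 of the 15 later time points. The rise was 0.57 (SE 0.11, adjusted p = 0.000923, limma) into 6 to 9 h and 0.65 (SE 0.10, adjusted p = 6.45e-05) into 12 to 21 h. With median scaling the first of these was 0.50 (adjusted p = 0.103). In the last step the difference was -0.13 (SE 0.08, 95% interval -0.30 to 0.03), which was not called, but with array weights it was a called fall (-0.15, adjusted p = 0.0419).

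S100A14, an S100 protein of epithelia, was low on the untreated array alone. It was 13.43 at 0 h, 14.16 at 3 h and between 14.04 and 14.53 on every later array, and at 12 of 15 time points it was 1.7-fold or more above 0 h. Its rise into 6 to 9 h was 0.55 (SE 0.16, adjusted p = 0.0154, limma) and its straight-line trend 0.49 (SE 0.16, adjusted p = 0.0340). Without the 0 h array these were 0.19 (adjusted p = 0.302) and 0.23 (adjusted p = 0.154), and the trend also missed the threshold without 36, 39 or 45 h (adjusted p = 0.0577 to 0.0707). The rise also missed it without 9 h (0.50, adjusted p = 0.1095) and without both dim arrays (adjusted p = 0.0947). With array weights (adjusted p = 0.0989) or median scaling (adjusted p = 0.0715) the rise was not called either.

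S100A11, which binds annexin A1, moved least among the genes with a called step. Its log2 intensity began at 13.99 (0 h), was highest after 6 h (14.41) and lowest after 42 h (13.77). It rose by 0.26 (SE 0.08, adjusted p = 0.0258, limma) into 6 to 9 h and fell by 0.32 (SE 0.07, adjusted p = 0.00210) into 12 to 21 h, which is opposite to S100A8, S100A9, S100A4 and S100A2 in that step. Both calls rest on the 6 h array, without which they were 0.15 (adjusted p = 0.247) and -0.21 (adjusted p = 0.0892), and the first was 0.20 (adjusted p = 0.127) without 0 h. The fall turned to 0.05 (adjusted p = 0.859) when arrays were scaled by their medians instead of quantiles, and its direction is therefore unsettled.

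The 2 brightest genes changed little. S100A6 (calcyclin) lay between 15.65 and 16.00 on the log2 scale and S100A10, the annexin A2 partner, between 15.75 and 15.96, ranges of 1.28-fold and 1.16-fold. S100A6 had a straight-line trend of -0.19 (SE 0.05, adjusted p = 0.0144, limma), which was -0.13 (adjusted p = 0.0728) without the 45 h array, and no step of either gene was called. For S100A10 the trend was -0.05 (SE 0.05, 95% interval -0.15 to 0.05). With median scaling instead of quantiles, S100A10 had a fitted range of 0.61 (adjusted p = 0.0235) and S100A6 a step of -0.55 (adjusted p = 0.0354) into 24 to 33 h, so how little they changed depends on the scaling. Both probes lie close to the highest intensity of the arrays, and whether this limits the change they can show was not tested.

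**Figure D2:**
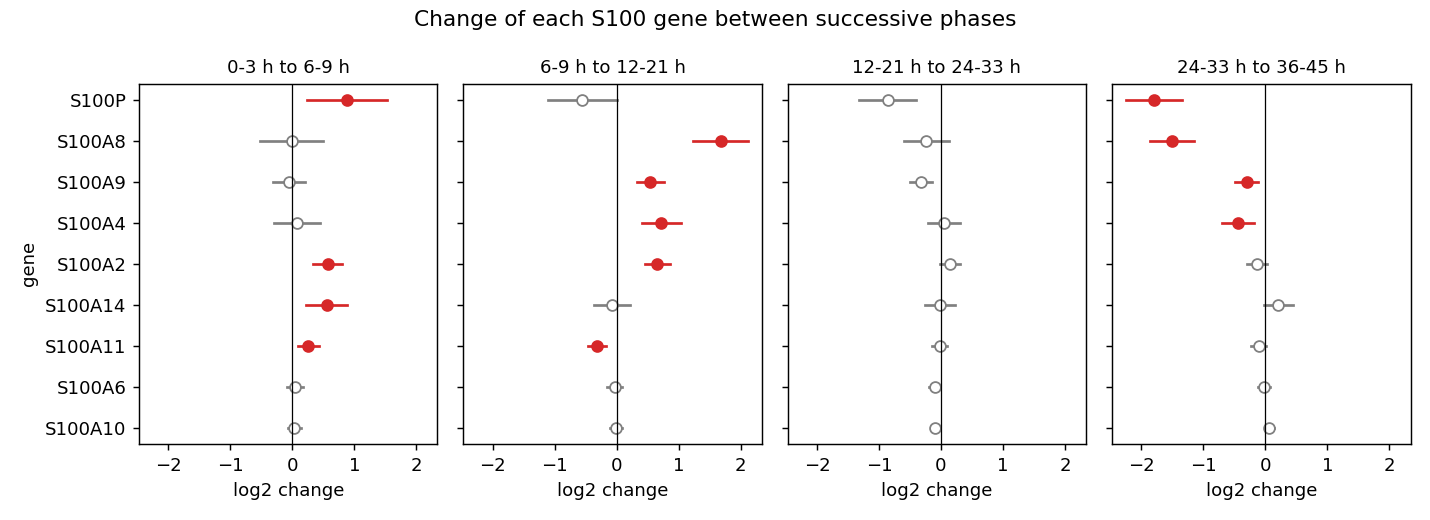
Log2 difference between successive phases for each of the 9 tested S100 genes, from the limma fit of 5 phases, with bars for the 95% interval and filled red points for adjusted p under 0.05. In the last step S100P (-1.80), S100A8 (-1.504), S100A4 (-0.44) and S100A9 (-0.30) fell, and into 12 to 21 h S100A8 rose most (1.68).

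Counted by step, 4 of the 9 tested genes rose and none fell into 6 to 9 h (S100P, S100A2, S100A11, S100A14), where 25.9% of all tested probes were called and 12.9% rose. Into 12 to 21 h S100A8, S100A9, S100A4 and S100A2 rose, against 16.9% of all probes, and S100A11 fell, against 17.8%. Into 24 to 33 h none passed in limma, where 0.463% of all probes did (0.284% lower), and 4 had an unadjusted p under 0.05. Into 36 to 45 h S100P, S100A8, S100A9 and S100A4 fell, against 9.45% of all probes, and none rose, against 10.3% (19.8% called in all). S100A14 was called higher in this step without 0 h (0.21, adjusted p = 0.0365), without 3 h (0.21, adjusted p = 0.0377) and with array weights (0.22, adjusted p = 0.0148), and S100A10 with array weights (0.08, adjusted p = 0.0472). The median step of the 9 genes there was -0.13, with 0.00 over all tested probes. Counting the promoters given above, all 4 genes that fell in this step hold TATAAA between 25 and 35 bases before a start. Of the other 5 tested genes 0 do, against 2.17% of all promoters. With the last letter free, S100A6 and S100A14 hold the letters as well, which makes 2 of those 5, against 3.57% of all promoters. S100A8 counts through the start shown above among its 3 listed starts. The calls of S100A4 and S100A9 in this step were lost without the 33 h or the 45 h array. The split was noticed after the expression values had been seen and was not tested.

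A smooth curve of time passed the F-test in limma for 7 of the 9 genes, where 41.9% of all tested probes passed. The 2 that missed the threshold were S100A11 (adjusted p = 0.0652) and S100A10 (adjusted p = 0.549). S100A11 passed with a spline of 3 or 5 degrees of freedom (adjusted p = 0.0454 and 0.01), with array weights (0.0184) and without the 0, 12, 27 or 45 h array (0.0192 to 0.0475), and S100A10 passed with median scaling. The fitted range was widest for S100P (3.61, adjusted p = 3.15e-06), followed by S100A8 (2.24, adjusted p = 0.000314) and S100A2 (1.57, adjusted p = 9.29e-07). It was 0.57 for S100A9 (adjusted p = 0.0321), a call that was lost without the 3, 12, 18 or 21 h array (adjusted p = 0.05069 to 0.0762). S100A6 (0.23, adjusted p = 0.0370) lost its call without the 3, 6, 9, 36, 42 or 45 h array (adjusted p = 0.0512 to 0.132), and S100A14 (0.83, adjusted p = 0.00911) without the 0 h array (adjusted p = 0.298). With array weights S100A6 (adjusted p = 0.105) and S100A14 (adjusted p = 0.121) lost their calls as well.

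A straight line over 45 h was called for 5 of the 9 genes, where 24.4% of all probes were. S100A2 (1.11, SE 0.25, adjusted p = 0.00297) and S100A14 were higher with time, against 12.9% of probes, and S100P (-3.21, SE 0.49, adjusted p = 0.000131), S100A11 (-0.32, SE 0.09, adjusted p = 0.0160) and S100A6 lower, against 11.5%. With the array set as a block none of the 5 passed, with a trend of -2.61 (adjusted p = 0.128) for S100P and 1.35 (adjusted p = 0.120) for S100A2. With array weights the trend of S100A2 was 0.24 (adjusted p = 0.299). With median scaling the trend of S100A11 was -0.06 (adjusted p = 0.845) and S100A6 also lost its call (adjusted p = 0.341). The line takes no account of a turn, and so the earlier and the later 8 arrays were each given their own slope and intercept. Both slopes come from 1 fit, with 1 estimate of the spread from all 16 arrays.

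From 0 to 21 h, 5 of the 9 genes rose along the slope and none fell, against 14.6% of probes that rose and 30.2% called in all. The slopes, as the log2 change over 21 h, were 2.33 (SE 0.43) for S100A8, 1.44 (SE 0.19) for S100A2, 1.09 (SE 0.23) for S100A4, 0.71 (SE 0.17) for S100A9 and 0.56 (SE 0.20) for S100A14. The call of S100A14 was lost without the 0, 12, 18, 27, 30, 33, 36, 39, 42 or 45 h array, with an adjusted p from 0.0508 to 0.653, the latter without 0 h (0.10). It was also lost with array weights (adjusted p = 0.163). S100P, which rose and fell back within this stretch, had a slope of 0.23 (SE 0.44, adjusted p = 0.731).

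From 24 to 45 h, S100P (-2.67, SE 0.44, adjusted p = 0.00227) and S100A8 (-2.11, SE 0.43, adjusted p = 0.00989) fell, against 2.19% of probes, and none rose, against 2.88% (5.07% called in all). The call of S100A8 was lost without the 42 h array (-1.90, adjusted p = 0.0513). The later slope was lower than the earlier one by the test of their difference in 5 genes, S100A8, S100P, S100A4, S100A2 and S100A9, against 12.1% of probes. For S100A2 this difference came from a rise that levelled off, with a later slope of -0.17 (95% interval -0.58 to 0.24). The median difference was -1.06 over the 9 genes and 0.01 over all tested probes.

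**Figure D3:**
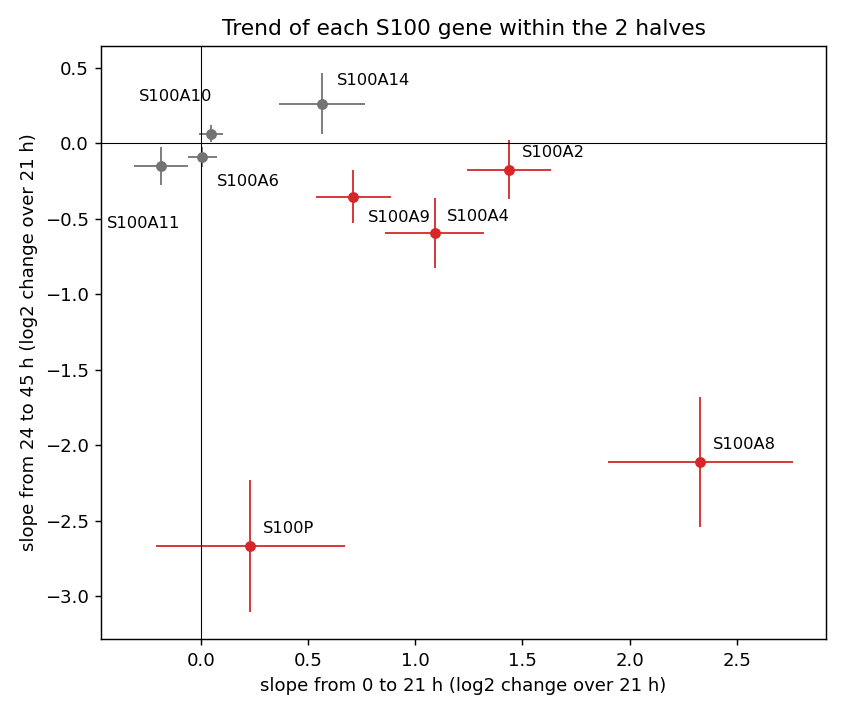
Slope of each S100 gene from 24 to 45 h against its slope from 0 to 21 h, both as log2 change over 21 h, with bars of 1 SE. Red marks the 5 genes whose slopes differ by the limma test, with S100A8 at 2.33 and -2.11 and S100P at 0.23 and -2.67.

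By the criterion of 1.7-fold from the 0 h array at any time, which has no error term, 5 of the 9 genes were counted (S100P, S100A2, S100A8, S100A9, S100A14), where 19.5% of all tested probes were. All 5 were higher at some time point (10.9% of probes) and 2 also lower (9.47%). S100P was counted higher at 6 time points and lower at 4, and S100A8 higher at 8 and lower at 2, so that both changed direction relative to the untreated culture. The largest difference between neighbouring arrays fell between 33 and 36 h for S100P and S100A8, and between 0 and 3 h for S100A4 and S100A14. It lay between 9 and 12 h for S100A2, where S100A8 also differed by 1.17 and S100A9 by 0.50.

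The genes with profiles most like those of the pair with the widest ranges are given as a description over 16 arrays, 1 per culture, in which all genes are read from the same arrays and the 2 array sets follow each other in time. For S100P, Pearson's r was 0.96 for FERMT1 (C20orf42 on the array), a kindlin of epithelial adhesions, and 0.96 for SERPINB7, 0.95 for IER3, an immediate early gene, 0.95 for SPTLC1 and 0.95 for SH3KBP1. Over the arrays from 0 to 21 h these values were lower, from 0.47 for IER3 to 0.82 for SPTLC1, while from 24 to 45 h they lay between 0.94 and 0.99, so the likeness was closest in the late fall. For S100A8, r was 0.95 for FIRRM (C1orf112 on the array), 0.95 for FLJ32363, 0.95 for MAD2L1, a spindle checkpoint gene, 0.95 for SRPX and 0.94 for SPC25 (SPBC25 on the array), a kinetochore gene. Within the stretches r lay between 0.93 and 0.96 from 0 to 21 h and between 0.96 and 0.99 from 24 to 45 h. The genes like S100P and S100A8 were chosen by r over all 16 arrays, so the values within a stretch are no separate check. The ranges of SPTLC1 (0.31) and FLJ32363 (0.41) were small.

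**Figure D4:**
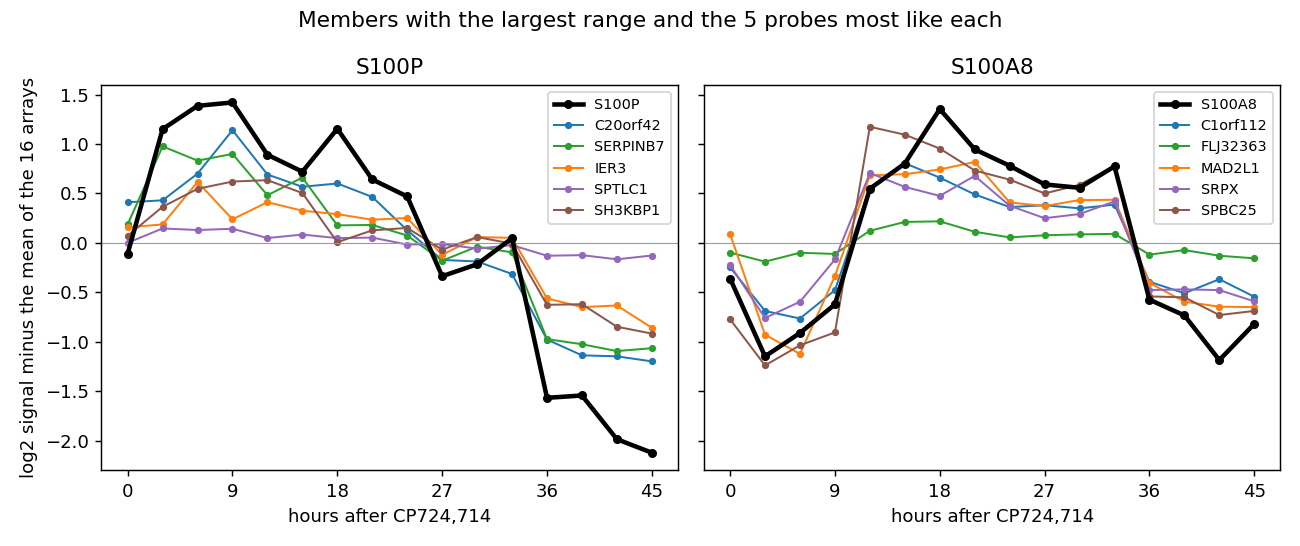
Profiles of S100P and S100A8 with the 5 genes most like each by Pearson's r over 16 arrays, as log2 signal minus the mean of each gene, drawn against hours of treatment and labelled with the symbols of the array. In the S100P panel all curves are lower from 36 h on, S100P by the most, and in the S100A8 panel they share the hump from 12 to 33 h.

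Of 10 further S100 genes on the array, 5 were detected on at least 1 array and 4 were tested, and 3 of these changed with time by the F-test, where 41.9% of all tested probes did. S100A13, a protein released with fibroblast growth factor, had the widest fitted range (1.14, adjusted p = 5.83e-06) and rose along the straight line by 1.11 (SE 0.10, adjusted p = 8.23e-07, limma). S100A16 (0.67, adjusted p = 0.0105) and S100A3 (0.50, adjusted p = 0.0163) also changed. S100A1, S100B, S100G and S100Z were detected on no array. Of 6 genes for large S100-fused epidermal proteins, 4 are on the array and 0 were detected.

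Among known partners, 3 of 4 tested annexins changed by the F-test, which 41.9% of all tested probes passed; along the line 2 were lower (11.5% of all probes) and 1 higher (12.9%). ANXA2, which binds S100A10, fell along the line by 0.82 (SE 0.15, adjusted p = 0.000531, limma) while S100A10 itself did not pass. ANXA5 fell by 0.67 (SE 0.14, adjusted p = 0.00222) and ANXA11, a partner of S100A6, rose by 0.55 (SE 0.10, adjusted p = 0.000435). These lines cross the change of array sets. Within the sets, ANXA2 fell from 24 to 45 h (-0.75, adjusted p = 0.0131) and ANXA5 from 0 to 21 h (-0.59, adjusted p = 0.0201). ANXA11 had no called slope in the earlier (0.23, adjusted p = 0.176) or the later set (0.36, adjusted p = 0.106). ANXA1, the partner of S100A11, did not pass. Of 5 receptors, AGER and CD36 were detected on no array and 0 of the 3 tested passed the F-test.

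Of 12 intracellular partners, all were tested and 4 changed by the F-test, a smaller share than the 41.9% of all tested probes. The widest fitted ranges were those of COPS5 (1.08, adjusted p = 6.47e-06), a subunit of the COP9 signalosome, CACYBP (0.85, adjusted p = 0.00893), the calcyclin-binding protein, and SUGT1 (0.66, adjusted p = 0.00427), a co-chaperone that binds S100A6. COPS5 rose along the line by 0.73 (SE 0.18, adjusted p = 0.00583, limma). Its slope was 1.08 (adjusted p = 8.48e-05) from 0 to 21 h and 0.06 (adjusted p = 0.868) from 24 to 45 h. The partners of S100A6 thus varied more than S100A6 itself as measured on its bright probe, a difference that was not tested.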

How the data were processed

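The 16 RNA samples were run on Illumina Ref-8 v2 arrays. The authors deposited probe intensity values, one per array, without normalization between arrays, and a detection p-value that sets the probe against the negative controls of its array. The scanner software is not given in the sources used here. Intensities were background-corrected and quantile-normalized with neqc in limma 3.58.1 (R 4.3.3; offset 16; detection p-values stood in for the control probes) and taken to log2. The tests took the 12321 probes (11565 symbols) detected at p under 0.05 in at least 3 arrays. Fits used lmFit and eBayes with a trend: a natural spline of time with 4 degrees of freedom (range of the fitted curve given), a straight line (log2 change over 45 h), means of 5 phases, and separate slopes for 0 to 21 h and 24 to 45 h (per 21 h). P-values were adjusted by Benjamini-Hochberg over all tested probes, with 0.05 as the threshold. With 1 array per time point, the spread is the scatter about the fitted curve or within a phase, and the number of arrays limits the precision.

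The members and the lists (further S100 genes, fused S100 genes, annexins, receptors, intracellular partners, and epithelial, myeloid and fibroblast markers) were chosen with earlier results of these data known. The genes named are all members, the 5 genes with the highest correlation to S100P and to the other member with the widest range, at most 3 genes past the F-test per list, and ERBB2. Promoters come from RefSeq (250 bases searched). Motifs searched were TATAAA and TATAAN on the strand of the gene and, on both strands, TGANTCA (AP-1), TTGCNNAA (C/EBP) and TTCNNNGAA (STAT), found in 6.8%, 13.6%, 6.57%, 9.05% and 6.57% of 35116 promoters; TGACTCA lies 52 bases before a start of S100A2, TTGGGCAA 33 bases before that of S100A11, and no member holds the STAT letters. TATAAN covers TATAAA. The scripts were tested on simulated data. Alternatives covered background correction, scaling, the detection filter, array weights, the spline, the array set as a block, the baseline and leaving out each array.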

Additional observations from a re-analysis of the deposited data

Results flagged for a closer look

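In 5 S100 genes the slope from 24 to 45 h differed from the slope from 0 to 21 h by the limma test of the difference. On the log2 scale per 21 h, later minus earlier, the difference was -4.44 for S100A8 (SE 0.61, adjusted p = 0.000617), -2.89 for S100P (SE 0.62, adjusted p = 0.00401), -1.69 for S100A4 (SE 0.33, adjusted p = 0.00237), -1.61 for S100A2 (SE 0.28, adjusted p = 0.00126) and -1.06 for S100A9 (SE 0.25, adjusted p = 0.00611). S100A8 changed from a rise to a fall, both called, while for S100A2, S100A4 and S100A9 the later slope missed the threshold and for S100P the earlier one did. The later slope passed for S100A4 with array weights (-0.67, adjusted p = 0.00287) and without 0 h (-0.59, adjusted p = 0.0323), and for S100A9 with array weights (-0.38, adjusted p = 0.0410). Each of the 5 differences stayed past the threshold when any 1 array was left out. The stretches are also the 2 array sets, each of which has its own intercept in the fit.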

How the results depend on the processing

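Of 2196 member values under the alternatives, 2089 kept their side of the threshold, 69 lost and 30 gained the threshold, 7 moved and 1 reversed. Direction was compared only for values called in the main fits, so uncalled values that changed sign count among those kept. No paired analysis was possible because no time point has more than 1 array. With median scaling, 3 genes had a called straight-line trend, 0 a step into 6 to 9 h and 4 a step into 24 to 33 h, and the step of S100A11 into 12 to 21 h reversed to 0.0509; over all probes, called trends then split 2409 higher to 585 lower (80.5% higher) against 1584 to 1420 (52.7%). With array weights, 1 gene had a step into 6 to 9 h, 2 into 24 to 33 h, 7 into 36 to 45 h (2 higher, 5 lower) and 4 a slope from 24 to 45 h. Dropping both dim arrays (9 h, 18 h) left 2 with a step into 6 to 9 h. With the array set as a block 0 had a trend. Leaving out each array gave 5 to 8 genes for the F-test, 3 to 5 for the trend (3 without 45 h), 1 to 4 for the step into 6 to 9 h (1 without 0 h, 2 without 6 h or 9 h), 4 to 6 into 12 to 21 h, 0 to 1 into 24 to 33 h (1 without 0 h or 3 h), 2 to 5 into 36 to 45 h (2 without 33 h or 45 h), 4 to 5 for the slope from 0 to 21 h, 1 to 3 for that from 24 to 45 h (1 without 42 h), 5 for their difference and 4 to 5 for 1.7-fold, which counted 7 with median scaling and 6 with the median as baseline. The cause was not tested. S100A9 lies near background and S100A6 and S100A10 near the top of the scale.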

Other observations

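S100A13 has 5 tested probes that disagreed in direction. The brightest, with a mean log2 level of 14.01, rose along the straight line by 1.11 (SE 0.10, adjusted p = 8.23e-07, limma), and a probe at 8.55 rose by 0.43 (SE 0.10, adjusted p = 0.00507). A probe at 8.21 fell by 0.34 (SE 0.07, adjusted p = 0.00194) and a probe at 8.15 fell by 0.20 (SE 0.05, adjusted p = 0.00791), while the trend of the probe at 9.81 was 0.29 (SE 0.17, adjusted p = 0.244). Which transcripts these probes match was not tested.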
